A study of Mus musculus with 30 samples.

Results

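The genes described here are 9 PPAR targets and lipid droplet genes, Plin2, Cpt1a, Slc25a20, Pdk4, Acot1, Ucp2, Cd36, Fabp4 and Angptl4, measured in blood cells of mice that received the fatty acid oleic acid (OA). They were chosen by name, and every non-control probe carrying a current or older symbol of a member was taken, which gave 10 of the 55681 probes. Of the 9 genes, 8 passed the filter on dim probes and are among the 25139 genes or unnamed transcripts tested, 16406 of them with a symbol. Pdk4 did not pass. The cells, PBMC or mononuclear cells of peripheral blood (mainly lymphocytes with some monocytes), were isolated on Ficoll of density 1.084 from female C57BL/6 mice aged 6 weeks. All mice were anesthetized with xylazine and ketamine, and then received 200 µl into the tail vein, either OA at 1.2 µl/g body weight or physiological serum. At 1 and at 1.5 h there were 3 serum and 3 OA arrays each; 3, 18 and 24 h had 2 serum and 3 OA arrays each, and 4 h had 1 serum and 2 OA arrays. The study is titled as one of acute lung injury, and its design sets OA against serum at each time.

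Peroxisome proliferator-activated receptors (PPARs) are nuclear receptors that bind DNA as partners of retinoid X receptors and are activated by fatty acids and their derivatives. Their target genes include the coat of the lipid droplet, the carnitine shuttle that brings fatty acids into mitochondria, and proteins that take up, bind or release fatty acids. Monocytes and macrophages store excess fatty acid as triglyceride in lipid droplets.

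The element that PPARs bind is a direct repeat of AGGTCA with 1 base between the copies, written AGGTCANAGGTCA. It was searched on both strands of the RefSeq promoter sequences (250 bases before to 50 after each start site, assembly GRCm38.p6), in which 7 of the 9 members matched by symbol; Angptl4 and Fabp4 are not among them. The sequences show how near these promoters come to the element that gives the gene set its name. Matches with at most 2 mismatches lay in the windows of 3 members and in 3.86% of all 32851 promoters. In the windows below the best match is in capitals, flanked by 8 bases on each side, and each is read on the plus strand.
Plin2, chr4:86670264-86670292: tctgacttAGGTCAGGGGTCCtgaaagct
Cd36, chr5:17835939-17835967: atccaagtAAGTCAGAGGCCAgagaacca
Slc25a20, chr9:108662134-108662162: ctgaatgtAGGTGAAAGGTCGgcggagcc
Counted from 1 at the 5′ end of the element, with the element's base first, the Plin2 match carries A8G and A13C, the Cd36 match G2A and T11C, and the Slc25a20 match C5G and A13G. The best matches in Cpt1a, Pdk4, Acot1 and Ucp2 had 4 mismatches, which 79.8% of all promoters hold or better. A match is a description of the letters, and no binding was measured.

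Levels are log2 processed signals relative to each array's 75th percentile. That percentile lay between 40.2 and 152 units of signal, and a share of 34.5% to 64.4% of an array's probes exceeded background clearly by the scanner's mark. Precision is set by how few arrays a group has, and the labels' design text counts 30 mice for the 30 arrays, so each array was taken as 1 mouse. Fewer cells of a type and less RNA per cell cannot be told apart in such bulk samples. The marker lists of the labelled cells were well represented, with mean log2 levels of 3.41 to 4.66 for T cells, 2.10 to 4.47 for B cells and 0.50 to 3.20 for monocytes. Erythroid (3.52 to 6.46), platelet (3.29 to 6.94) and neutrophil (2.35 to 5.83) lists were also high. The 3 arrays least like the others were serum 24 h replicate 1 (median correlation 0.797), OA 4 h replicate 2 (0.835) and serum 1.5 h replicate 3 (0.885). They also had the highest mean signal of long intergenic RNA probes among arrays of their time. The arrays came from 5 slides, and slide 5 held 5 OA arrays that were scanned on a day of their own. At 24 h both serum arrays were on slide 1 and the OA arrays on slides 5, 3 and 2, so no slide held both treatments.

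**Figure D1:**
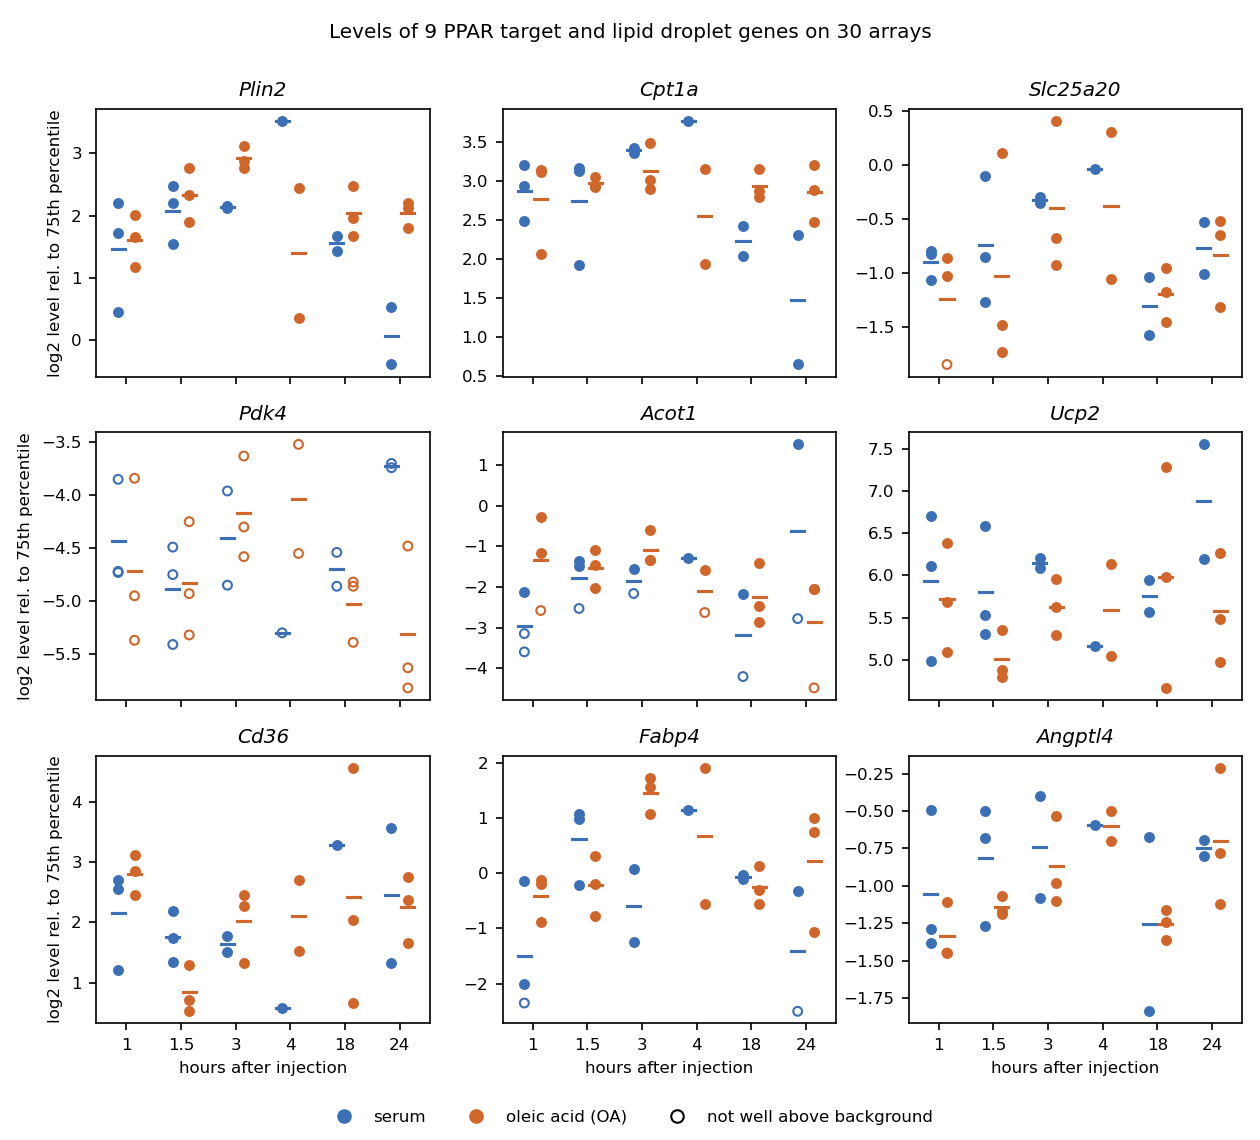
Log2 level relative to the array's 75th percentile (vertical axis) of each of the 9 members at 6 times after injection (horizontal axis, not to scale), 1 point per array with short bars for group means; open points were not well above background. Plin2 and Cpt1a lie lowest in the 24 h serum group, and every Pdk4 point is open.

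Plin2, the perilipin that coats lipid droplets in most cells, was read by a probe at chr4:86302847-86302906 (mm9, minus strand) that was well above background on all 30 arrays. At 24 h its level was -0.39 and 0.54 on the serum arrays and 2.21, 2.12 and 1.80 on the OA arrays. All 3 OA arrays were above both serum arrays. Plin2 was higher after OA by 1.97 on the log2 scale (SE 0.52, limma adjusted p = 0.0193). This was 1 of 2 members called at 24 h among the 8 tested, a share near the background, since 29.6% of all genes were called there and 13.1% were called as higher. The call was lost without serum 24 h replicate 1 (1.5, SE 0.65, limma adjusted p = 0.497), where 38 genes in all were called, and without OA 24 h replicate 1 (1.89, limma adjusted p = 0.0618). It was also lost with the slide as a block (1.85, limma adjusted p = 0.156) and with the intergenic signal as a covariate (0.81, SE 0.58, limma adjusted p = 0.998).

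Monocyte markers moved with Plin2 at 24 h. The mean of the 13 monocyte markers was 0.50 and 1.73 on the serum arrays and 3.02 to 3.20 on the OA arrays, with 12 of 13 genes above 0 in the difference, a median of 2.05 and 8 called. The 7 measured lung epithelium markers moved the other way, with means of -0.78 and 0.57 on the serum arrays and -4.02 to -3.50 on the OA arrays. All 7 were lower after OA (median -3.25, 5 called), led by Sftpc, the surfactant protein C of alveolar cells, at -7.0 (SE 0.56, limma adjusted p = 1.12e-06). Sftpa1 and Scgb3a2 of that list were not well above background on any array. The 8 measured adipocyte markers had a median difference of -1.91, with 7 below 0 and 4 called. Their means on the OA arrays ran from -4.59 to -3.22. Pdk4, too dim to be tested, gave -5.82 to -3.52 over all arrays. The OA means of the lung epithelium and adipocyte lists thus lie at or near the level of a dim gene. The sizes of their differences are therefore uncertain. B cell markers had a median of 1.08 with 5 of 10 called, and 2 of 7 endothelial markers were called as lower (median -1.16). No platelet, neutrophil, erythroid, T cell or NK cell marker was called at 24 h. These calls are to be read against the 29.6% of all genes called at 24 h. Without serum 24 h replicate 1 the medians were 1.41 for monocyte, 0.42 for B cell, -1.27 for adipocyte, -1.21 for endothelial and -2.57 for lung epithelium markers. With the intergenic covariate they were 1.21, -0.02, 0.12, -1.72 and -1.36 in that order. No monocyte, B cell, adipocyte or endothelial marker was called with that covariate, and 1 lung epithelium marker was. The part of these cell types in the Plin2 difference was not tested.

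At the earlier times Plin2 did not pass the test. At 3 h the serum arrays stood at 2.13 and 2.15 and the OA arrays at 3.12, 2.77 and 2.87, a separation without overlap and a difference of 0.78 (SE 0.52, limma adjusted p = 0.691). At 4 h the single serum array stood at 3.52, the highest Plin2 level of the study, and the OA arrays at 2.44 and 0.36. The difference of -2.12 (SE 0.70) had an unadjusted p of 0.0061 in limma and an adjusted p of 0.422. Within slide 3, which held the serum array and OA 4 h replicate 2, the difference was -3.16, and without that replicate it was -1.08 (SE 0.68). The monocyte list was at 3.20 on the 4 h serum array and at 2.41 and 0.74 on the OA arrays. At 18 h the serum arrays stood at 1.44 and 1.67 and the OA arrays at 1.97, 1.68 and 2.48, a narrow separation of 0.49 (SE 0.52). At 1 and 1.5 h the groups overlapped, with differences of 0.16 and 0.25.

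Cpt1a, the outer-membrane enzyme that commits long-chain fatty acids to mitochondrial oxidation, had a pair of probes. The brighter, at chr19:3385374-3385433 (mm9, plus strand, 10 spots), represents the gene. Its 24 h levels were 0.65 and 2.31 on the serum arrays and 3.21, 2.89 and 2.48 on the OA arrays. The OA arrays lay above the serum arrays without overlap, although serum replicate 2 and OA replicate 3 were close. The difference was 1.38 (SE 0.48, limma adjusted p = 0.0377). It was 0.55 (SE 0.53, limma adjusted p = 0.736) without serum 24 h replicate 1, whose level was the lowest of all 30 arrays, and 2.21 without serum 24 h replicate 2. Leaving out OA 24 h replicate 1 (1.20, limma adjusted p = 0.104) or replicate 2 (1.36, limma adjusted p = 0.0762) also ended the call. So did quantile normalization (1.03, limma adjusted p = 0.0536), the authors' values (0.88, 0.0592), the median of always-detected probes as the scale (0.86, 0.0689), the slide as a block (1.25, 0.228) and the intergenic covariate (0.21, 0.998).

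The dimmer Cpt1a probe, at chr19:3384060-3384119, disagreed at 24 h. It stood at -0.43 and -0.73 on the serum arrays and at -0.41, -0.75 and -2.43 on the OA arrays, the last of these not well above background, for a difference of -0.62 (SE 0.47). At 18 h both probes were higher on all 3 OA arrays than on both serum arrays, by 0.70 (SE 0.48) for the brighter and 1.00 (SE 0.47, limma unadjusted p = 0.046, adjusted p = 1) for the dimmer. At 4 h the brighter probe stood at 3.77 on the serum array and 3.16 and 1.94 on the OA arrays, a difference of -1.22 (SE 0.64, limma adjusted p = 0.47). It was -0.61 (SE 0.70) without OA 4 h replicate 2 and -1.83 (SE 0.70) without OA 4 h replicate 1. At 1, 1.5 and 3 h the Cpt1a groups overlapped, with differences of -0.11, 0.23 and -0.26.

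**Figure D2:**
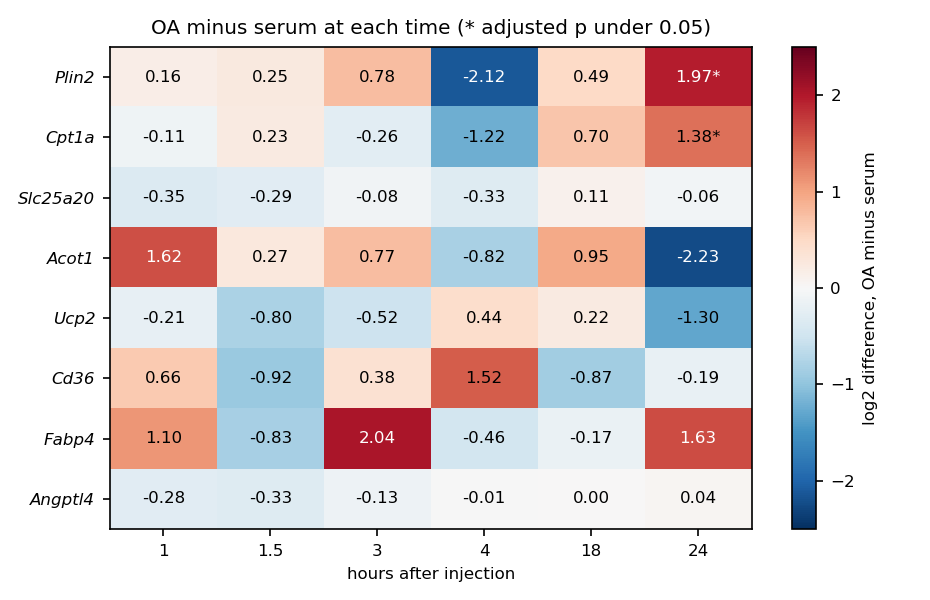
Log2 difference of OA minus serum for the 8 tested members (rows) at 6 times (columns), with colour and printed value for each and an asterisk where the adjusted p is under 0.05. The 2 asterisks are Plin2 (1.97) and Cpt1a (1.38) at 24 h.

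Slc25a20, the carrier that exchanges acylcarnitine for carnitine across the inner mitochondrial membrane, showed no difference past the test at any time. Its probe, at chr9:108585399-108585458 (mm9, plus strand), was well above background on 29 of 30 arrays. The 24 h levels were -1.01 and -0.53 on the serum arrays and -0.65, -0.52 and -1.32 on the OA arrays. The groups overlapped there and at the other 5 times, and the differences ran from -0.35 (SE 0.47) at 1 h to 0.11 (SE 0.52) at 18 h. The 95% interval at 24 h ran from -1.15 to 1.02, so changes of up to about 1 log2 unit either way lie within it.

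Pdk4, a kinase that switches off pyruvate dehydrogenase when fatty acids are burned, was not well above background on any of the 30 arrays. Its probe at chr6:5433441-5433500 (mm9, minus strand) gave values between -5.82 and -3.52. No fold is given and no test was made.

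Acot1, a cytosolic thioesterase that splits fatty acyl-CoA, was read at chr12:85358561-85358620 (mm9, plus strand) and was well above background on 21 of 30 arrays. It lies between Acot2 and Acot4 in the reference gene order, and signal from such close relatives of a gene can mix on a probe. At 24 h the serum arrays stood far apart, at 1.52 and -2.78, and the OA arrays at -2.05, -2.04 and -4.49. The values of -2.78 and -4.49 were not well above background. The groups overlapped. The difference of -2.23 (SE 0.96, limma adjusted p = 0.0764) fell to -0.08 (SE 0.97) without serum 24 h replicate 1. Without serum 24 h replicate 2 it was -4.38, with a limma adjusted p of 0.00257. At 1 h the serum arrays were at -3.15, -3.60 and -2.12 and the OA arrays at -2.58, -0.27 and -1.15. The values of -3.15, -3.60 and -2.58 were not well above background. The groups overlapped by 1 OA array, and the difference of 1.62 (SE 0.86, limma adjusted p = 0.821) did not pass.

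Ucp2, an uncoupling protein of the inner mitochondrial membrane that is common in blood cells, was read at chr7:107647809-107647868 (mm9, plus strand) on all 30 arrays, at 4.67 to 7.55. At 24 h it stood at 7.55 and 6.2 on the serum arrays and 6.27, 4.98 and 5.48 on the OA arrays. One OA array lay between the serum arrays, and the difference was -1.30 (SE 0.64, limma adjusted p = 0.115). Without serum 24 h replicate 1, the highest Ucp2 array, it was -0.62 (SE 0.79), and without replicate 2 it was -1.97 (limma adjusted p = 0.0426). At 3 h the serum arrays, at 6.21 and 6.09, were above the OA arrays, at 5.63, 5.96 and 5.30, by less than the SE (-0.52, SE 0.64).

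Cd36, a scavenger receptor that takes up long-chain fatty acids and is found on monocytes and platelets, was read at chr5:17288600-17288659 (mm9, minus strand). The spot of serum 18 h replicate 2 carried the scanner's outlier mark and was left out, so that 29 arrays gave a value and the 18 h serum group rests on 1 array. At 1.5 h the serum arrays stood at 2.19, 1.75 and 1.35 and the OA arrays at 1.30, 0.53 and 0.72. The OA arrays were below the serum arrays without overlap, with a difference of -0.92 (SE 0.71, limma adjusted p = 0.591). At 4 h the order was turned, with 0.59 on the serum array and 2.70 and 1.53 on the OA arrays (1.52, SE 1.07, limma adjusted p = 0.529; 0.93 without OA 4 h replicate 1 and 2.11 without replicate 2). The erythroid list moved in the same directions, with group means of 4.63 and 3.68 at 1.5 h and 3.93 and 5.06 at 4 h in serum and OA. The platelet list moved the other way, with 13 of 13 markers above 0 at 1.5 h (median 1.89) and 12 of 13 below 0 at 4 h (median -0.60), none called. At 24 h the difference was -0.19 (SE 0.80).

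Fabp4, a fatty acid carrier of adipocytes and macrophages, was read at chr3:10204452-10204511 (mm9, minus strand) and was well above background on 28 arrays. At 3 h the serum arrays stood at 0.08 and -1.25 and the OA arrays at 1.72, 1.57 and 1.07. Every OA array was above both serum arrays, and the difference was 2.04 (SE 0.77). It had a limma unadjusted p of 0.0145 and an adjusted p of 0.626. Leaving out single arrays gave 1.37 to 2.70, and within slide 1 the difference was 2.82. The monocyte list was also higher at 3 h, at 1.89 to 2.01 in serum and 2.46 to 3.14 in OA, and the part of this in the Fabp4 difference was not tested. At 24 h Fabp4 stood at -0.33 and -2.5 on the serum arrays and at -1.07, 1.00 and 0.74 on the OA arrays. The value of -2.5 was not well above background. The groups overlapped, and the difference was 1.63 (SE 0.77, limma adjusted p = 0.1). It was 2.72 without serum 24 h replicate 1 and 0.55 without serum 24 h replicate 2. At 1.5 h the difference had the other sign (-0.83, SE 0.69).

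Angptl4, a secreted inhibitor of lipoprotein lipase, was read at chr17:33911880-33911939 (mm9, minus strand) and was well above background on 29 arrays. Its levels stayed between -1.84 and -0.21, and the groups overlapped at all 6 times. At 24 h the serum arrays stood at -0.80 and -0.69 and the OA arrays at -0.78, -1.12 and -0.21, a difference of 0.04 with a 95% interval of -0.73 to 0.81. The differences at the other times ran from -0.33 (SE 0.33) at 1.5 h to 0.00 (SE 0.37) at 18 h.

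Counted over the 8 tested members, limma called none at 1, 1.5, 3, 4 or 18 h, where 0% of all genes were called. At an unadjusted p under 0.05 the 1, 1.5 and 18 h comparisons held 0 members (5.41%, 9.97% and 0.987% of all genes), the 3 h comparison held 1 (Fabp4; 7.77%), the 4 h comparison held 1 (Plin2; 10.9%) and the 24 h comparison held 4 (Plin2, Cpt1a, Acot1 and Fabp4; 46%). Groups did not overlap for 0 members in the 1 h comparison (12% of all genes), 1 member in that of 1.5 h (24.2%), 4 in that of 3 h (30.5%), 4 in that of 4 h (71.8%), 2 in that of 18 h (6.96%) and 2 in that of 24 h (55.9%). Acot1, 1 of the 4 at 3 h and at 4 h, was not well above background on 1 array of the lower group each time. The members' share was below that of all genes at 1, 1.5, 4 and 24 h and above it at 3 and 18 h, a difference that was not tested. The median difference of the members was 0.02, -0.31, 0.15, -0.40, 0.16 and -0.01 at 1, 1.5, 3, 4, 18 and 24 h, beside -0.09, 0.05, 0.09, -0.17, -0.07 and -0.03 for all genes. At 24 h the members were divided in direction, with 4 above 0 and 4 below.

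Averaged over the 6 times, the OA minus serum difference ran from -0.36 (SE 0.27) for Ucp2 to 0.55 (SE 0.32) for Fabp4. None of the 8 was called by limma, against 0.00398% of all genes, and none had an unadjusted p under 0.05, against 14.6% of all genes. The exact permutation test of treatment within times (two-sided, 1200000 relabelings, 480000 for Cd36) gave p values from 0.197 for Ucp2 to 0.847 for Acot1, with 0.202 for Fabp4 and 0.585 for Plin2.

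Over time, Plin2 and Cpt1a were lower late than early in serum mice without passing the adjusted threshold. Late (18 and 24 h) minus early (1 to 4 h) serum levels differed by -1.49 (SE 0.35) for Plin2 and by -1.34 (SE 0.32) for Cpt1a, with limma unadjusted p values of 0.00038 and 0.000443 and adjusted values of 0.103 and 0.106. Both genes were called with the authors' values, the median of always-detected probes as the scale and quantile normalization, with limma adjusted p values of 0.0142 to 0.0336 for Cpt1a and 0.0237 to 0.036 for Plin2, where 0.493% to 1.09% of all genes were called. Without serum 24 h replicate 1 the difference was -0.92 for Cpt1a and -1.26 for Plin2. Without serum 24 h replicate 2 it was -1.76 and -1.72. Each of these fits leaves 1 serum array at 24 h, so only the sizes are given. With the replicate block Plin2 was at -0.78 (limma adjusted p = 0.461). The dimmer Cpt1a probe gave -1.01 (SE 0.32). Of the 13 monocyte markers 11 were below 0 in this contrast (median -0.75, 1 called), as were all 14 neutrophil markers (median -1.26, 1 called). Without serum 24 h replicate 1 the medians were -0.32 and -1.16, with none called. The part of these cell types in the differences was not tested. The same contrast in OA mice was -0.02 (SE 0.29) for Plin2 and 0.04 (SE 0.27) for Cpt1a. No member was called in either contrast, against 0.155% of all genes in serum and 0.163% in OA, and 3 members in serum (10% of all genes) and 0 in OA (15.3%) had an unadjusted p under 0.05. The third was Cd36, with a late minus early difference of 1.33 in serum (SE 0.62, limma adjusted p = 0.48). It was 0.77 without serum 24 h replicate 1 and 1.89 without replicate 2, and all 13 erythroid markers were above 0 in the same contrast (median 0.50, none called). The test of the difference itself, the late minus early OA effect, gave 1.47 (SE 0.46) for Plin2 and 1.38 (SE 0.42) for Cpt1a, both with a limma adjusted p of 0.233. It called no member and 0% of all genes, and at an unadjusted p under 0.05 these 2 members and 14.3% of all genes. F tests over the times called none of the 8 members for the OA effect (0.00796% of all genes), the serum groups (0.0597%) or the OA groups (0.171%), and 2 (16.7% of all genes), 3 (13%) and 0 (18.3%) members had an unadjusted p under 0.05.

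Ordered by group mean, Plin2 ran from 3.52 in serum at 4 h to 0.07 in serum at 24 h, and Cpt1a from 3.77 to 1.48 between the same groups. Fabp4 was highest in OA at 3 h (1.45) and lowest in serum at 1 h (-1.50). Ucp2 was highest in serum at 24 h (6.88) and lowest in OA at 1.5 h (5.01). Between neighbours in these orders, 1 gap was over 2 of its standard errors among the 8 genes, that of 1.33 between OA at 4 h and serum at 24 h in Plin2.

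**Figure D3:**
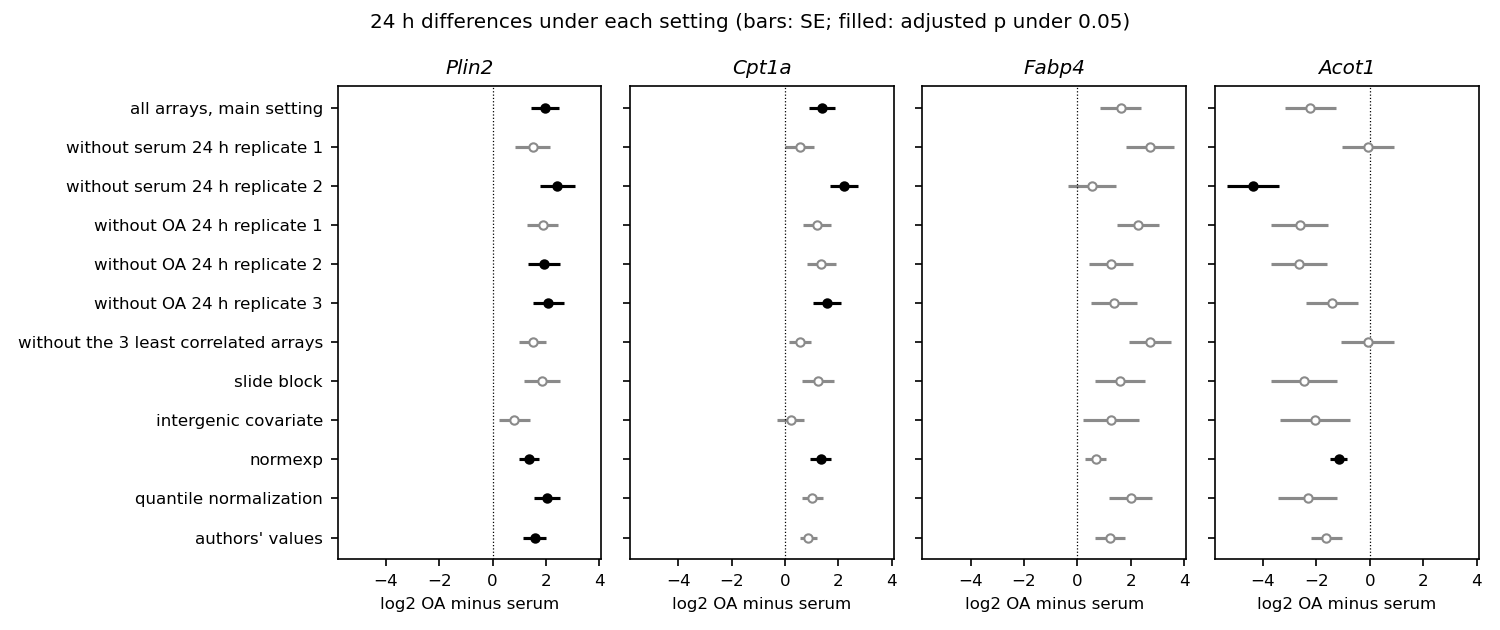
Log2 difference of OA minus serum at 24 h (horizontal axis) of Plin2, Cpt1a, Fabp4 and Acot1 under each setting (rows), with bars of 1 SE and filled points where the adjusted p is under 0.05. Plin2 stays above 0 throughout (0.81 to 2.43 in the settings drawn), while Acot1 is at -4.38 without serum 24 h replicate 2 and at -0.08 without serum 24 h replicate 1.

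Across arrays, 4 of the 28 pairs of members varied together past an adjusted p of 0.05 (permutation tests, 100000 resamples), all with a positive sign. Plin2 and Cpt1a had r = 0.816 and rho = 0.695 (30 arrays, permutation adjusted p = 0.00028 and 0.00112), and r was 0.692 without the 2 arrays farthest from the Plin2 median. Plin2 and Fabp4 had r = 0.635 and rho = 0.669 (permutation adjusted p = 0.00177 and 0.00112). Cd36 and Ucp2 had r = 0.729 and rho = 0.648 (29 arrays, permutation adjusted p = 0.00028 and 0.00205), and Angptl4 and Slc25a20 had r = 0.553 and rho = 0.592 (permutation adjusted p = 0.0107 and 0.0049). The median r of the 28 pairs was 0.0381. On deviations from the group means the r of Plin2 with Cpt1a (0.733) and of Cd36 with Ucp2 (0.832) passed (permutation adjusted p = 0.0274 for both), no other pair did, and by rho none passed. Without the 3 least correlated arrays 6 pairs passed, the 4 above with Plin2 and Acot1 (r = 0.506, permutation adjusted p = 0.0398) and Cpt1a and Acot1 (r = 0.485, permutation adjusted p = 0.0456), which stood at -0.01 and -0.171 over all arrays. All arrays share the scaling, and their depth and cell makeup differ.

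Members followed the marker lists of different cell types, in a comparison of 80 pairs chosen after the data had been seen. Cd36 followed the erythroid list, with r = 0.940 and rho = 0.941 over 29 arrays (permutation adjusted p = 0.000267 and 0.0004). The r was 0.931 on deviations from group means and 0.938 without the 3 least correlated arrays. Ucp2 did so with r = 0.836 and rho = 0.772 (permutation adjusted p = 0.000267 and 0.0004), 0.885 within groups and 0.808 without those arrays. Plin2 followed the monocyte list, with r = 0.807 and rho = 0.662 (permutation adjusted p = 0.000267 and 0.00373), 0.844 within groups and 0.657 without those arrays. Cpt1a had r = 0.635 with the T cell list and 0.615 with the monocyte list, but 0.227 and 0.193 without the 3 arrays, so both rest on them. The other pairs that passed were negative. Cpt1a had r = -0.572 with the lung epithelium list and -0.527 with the adipocyte list (permutation adjusted p = 0.0347 and 0.037), but -0.012 and 0.0175 without the 3 arrays, and neither passed by rho. Acot1 had r = -0.515 with the NK cell list (permutation adjusted p = 0.0351; -0.405 without the 3 arrays) and rho = -0.441 (0.161), and Ucp2 passed with the monocyte list by rho (-0.548, permutation adjusted p = 0.0418) and not by r (-0.491, 0.0514). Fabp4 with the monocyte list reached r = 0.402 (permutation adjusted p = 0.14). Without the 2 arrays farthest from the median, r was 0.930 for Cd36, 0.755 for Ucp2 and 0.659 for Plin2.

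**Figure D4:**
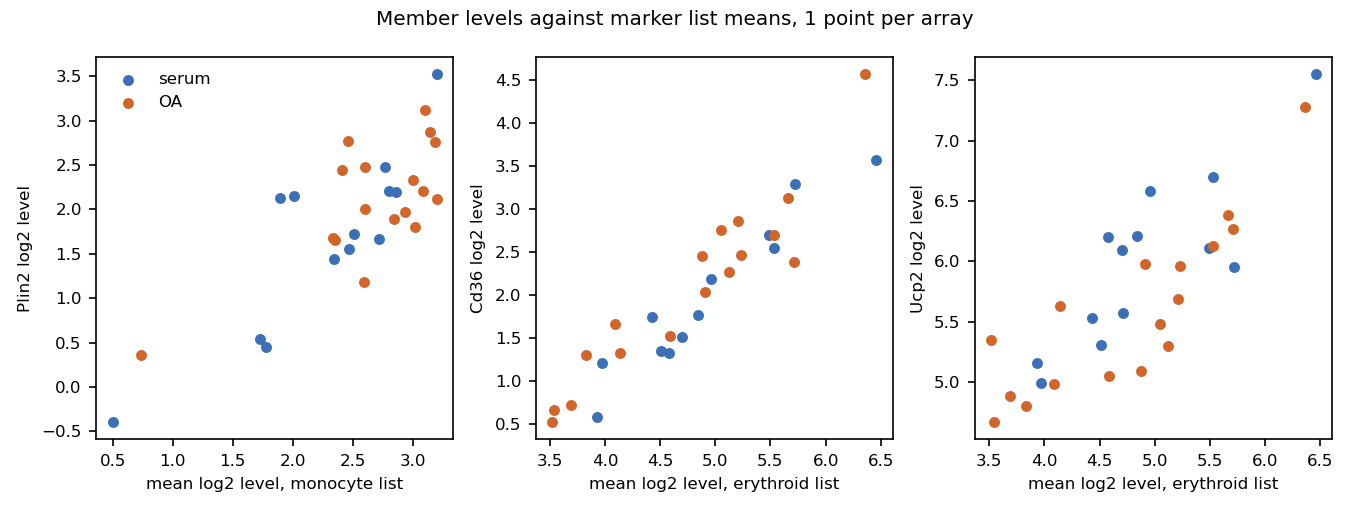
Log2 levels of Plin2, Cd36 and Ucp2 (vertical axes) against the mean log2 level of the monocyte or erythroid marker list (horizontal axes), 1 point per array coloured by treatment. Over all arrays r was 0.807, 0.940 and 0.836.

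The genes whose levels were most alike to each member over the arrays were taken by highest r, as a description. For Cd36 they included Dcun1d1 and Yipf4 (both 0.959). For Ucp2 they were Ucp3 (0.956), its neighbour in the reference gene order, Cngb1 (0.953) and Slc25a39 (0.943). Cpt1a was most like Acaa2 (0.895), an enzyme of the last step of mitochondrial beta-oxidation, and Plin2 most like Cyria (0.877), Ulk1 (0.876) and D230025D16Rik (0.86). Fabp4 was most like Cd300e (0.779), a monocyte receptor, Pparg (0.778), the PPAR of adipocytes and macrophages, and Tiam2 (0.759). Acot1 had Cartpt (0.712), Slc25a20 had Mta1 (0.767) and Angptl4 had 1700122O11Rik (0.637) as their best. Deaf1 and Man2c1 for Cpt1a were both at 0.862.

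Other genes of the pathway were given from 3 lists. Of 13 tested receptors, partners and coregulators, 4 were called at 24 h, and 3 of them were higher after OA. They included Fabp5, a fatty acid carrier that delivers ligand to the receptors (1.73, SE 0.57), and the retinoid X receptor Rxrb (0.93, SE 0.35), while its relative Rxrg was lower (-0.98, SE 0.36). Of 20 further target genes 5 were called. Of these, 4 were higher, among them Etfdh (1.78, SE 0.41) and Cpt2 (1.40, SE 0.38), which serve mitochondrial fatty acid oxidation, and the peroxisomal Pex11a (1.53, SE 0.42). The lipoprotein receptor Vldlr was lower (-2.70, SE 0.99). Of 16 droplet proteins and lipases 2 were called. The droplet enzyme Hsd17b11 was higher (1.88, SE 0.53) and the hormone-sensitive lipase Lipe was lower (-1.77, SE 0.44). Lipe is also 1 of the 4 adipocyte markers called at 24 h. List medians were 0.54, 0.73 and 0.37 beside -0.03 for all genes, and the shares called are to be read against the 29.6% of all genes. The medians depended on the setting. They were 0.18, 0.04 and 0.22 without serum 24 h replicate 1 and 0.27, 0.42 and 0.56 with the slide as a block. With the intergenic covariate they were 0.10, -0.03 and -0.19. None of the 11 genes called in the 3 lists was called without serum 24 h replicate 1, with the slide as a block or with the intergenic covariate. Lipe and Cpt2 were then still at -1.94 and 1.11 without that array.

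In the late minus early contrast of serum mice, which includes the serum 24 h arrays, 2 list genes were called, beside 0.155% of all genes. Pex11a (-1.58, limma adjusted p = 0.0317) and Dgat2, which makes triglyceride (-1.93, limma adjusted p = 0.0378), were lower late than early. Without serum 24 h replicate 1 neither was called (-1.44 and -1.78, limma adjusted p = 0.134 and 0.173), and 6 genes in all were. With the intergenic covariate Dgat2 was not called (-1.87, limma adjusted p = 0.0515). In the mean over times limma called none of the 3 lists' genes, beside 0.00398% of all genes. Of the 13, 20 and 16 tested, 2, 6 and 2 had an unadjusted p under 0.05, beside 14.6% of all genes. The smallest p values belonged to Rxrg (-0.51), Ppara (-0.37) and Pparg (0.35) among receptors. They belonged to Aqp7 (-0.87), Etfdh (0.40) and Cpt2 (0.36) among targets, and to Hsd17b11 (0.66), Pnpla2 (0.37) and Dgat1 (-0.31) among droplet genes. Genes of these lists that were too dim to be tested included Ppargc1b, Creb3l3, Fgf21, Cyp4a14, Plin1 and Cidec.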

How the data were processed

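Total RNA of PBMC was labelled with Cy3 and hybridised to 1-colour Agilent mouse arrays. Per the file headers, the deposited scanner intensity values were extracted with Feature Extraction 10.5.1.1, and the processed signal is corrected for background within each array. A deposited table of the authors' log2 values, whose column medians were 5.35 to 5.36, was used as an alternative; its scale was found by comparison with the scanner values, and neither its background correction nor its centring is stated in those sources.

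Here log2 of the processed signal minus each array's 75th percentile was used. Control spots and spots with the outlier mark were left out, and spots of a probe were averaged. Probes marked well above background on 3 or more of the 30 arrays were tested, and of several probes of a gene the one of highest mean was used. A model with 12 treatment-by-time groups was fitted with limma 3.58.1 in R 4.3.3 to all arrays (18 residual degrees of freedom), two-sided, with Benjamini-Hochberg adjustment over all genes and a threshold of 0.05. The 24 h arrays enter the mean, late minus early and F tests too, so these share data, and the 1 serum array at 4 h is given the spread of the rest. Probe positions are those of the files (mm9), and exon or UTR annotation of that build was not used here. Replicate numbers were taken only as names of arrays within a group. Simulated data for OA minus serum at 24 h held 25139 genes with independent noise. Only 100 genes were changed by 2 on the log2 scale and 100 by 1, and 27% and 1% of these were called. In the real data 29.6% of all genes were called at 24 h, which makes the adjustment less strict. The simulated shares are therefore not the power of the real comparison.

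Named genes were all members, list genes called in any contrast, otherwise the 3 of smallest p per list for the mean difference, and the 3 genes most alike to each member. Some genes that this rule names are not reported here. Members, lists and tests were chosen with earlier results of these data known. The alternatives were other scalings, background corrections, filters and probe rules, slide and replicate blocks, the intergenic covariate, and arrays left out. Those run on pathway and marker lists, and the correlations with marker lists, were chosen after seeing the data.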

Additional observations from a re-analysis of the deposited data

Results flagged for a closer look

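For 4 members, groups separated without overlap in opposite directions at different times. How often this happens among all genes was not counted. The 4 are therefore not read as more than other genes would show. Plin2 was higher after OA at 3 h (0.78) and 24 h (1.97) and lower at 4 h (-2.12). Its 18 h arrays also separated, but the difference of 0.49 was smaller than its SE of 0.52, so no direction is read from it. Cpt1a was lower at 4 h (-1.22, but -0.61 without OA 4 h replicate 2) and higher at 18 h (0.70) and 24 h (1.38). The 24 h difference was 0.55 without serum 24 h replicate 1 and 0.21 with the intergenic covariate. The dimmer Cpt1a probe was not higher after OA at 24 h. The Acot1 differences of 0.77 (SE 0.96) at 3 h and -0.82 (SE 1.28) at 4 h were smaller than their SE, and 1 of 2 serum arrays at 3 h and 1 of 2 OA arrays at 4 h were not well above background, so no direction is read from them. Cd36 was lower at 1.5 h (-0.92) and higher at 4 h (1.52). Each of the 4 patterns has its opposite sign at 4 h, where the serum group is 1 array and 71.8% of all genes have groups that do not overlap. The test of whether the OA effect differed between times did not pass for any of them, with limma adjusted p values of 0.219 for Plin2, 0.296 for Cpt1a, 0.352 for Acot1 and 0.585 for Cd36. No group held 4 or more arrays, so single arrays were not tested as outliers.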

How the results depend on the processing

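The count of 2 members called in the OA minus serum differences at each time was 0 with the slide block, with the intergenic covariate and without the 3 least correlated arrays. It was 1 with the authors' values, the mean of a gene's probes, the median of always-detected probes, quantile normalization, the slide random block and the replicate block, and 0 to 4 with single arrays left out. The 4 calls, without serum 24 h replicate 2, were Plin2, Cpt1a, Acot1 and Ucp2. Arrays of the same replicate number were not treated as pairs in the main fit, since the sample titles give only the numbers. The 12 same-number pairs correlated at -0.537 to 0.418, 4 of them over 0.1. With so few arrays in a group this cannot settle whether the numbers pair arrays. The replicate block called 2046 genes at 24 h against 7446. Genes called at 24 h numbered 12932 without serum 24 h replicate 2, 38 without serum 24 h replicate 1, 137 without OA 24 h replicate 1 and 9 with the slide block. Members called for the serum late minus early contrast were 2 with the authors' values, the median of always-detected probes and quantile normalization, and 0 to 2 with single arrays left out. For the late minus early OA effect, and for differences between times in the OA effect and in serum, leaving out single arrays gave 0 to 1. The number of all genes called moved widely between settings too, as the counts at 24 h show. These member counts are therefore not read as a result about the members. Of 30 member differences at least as large as their SE, 28 never changed sign in the refitted models. The exceptions were the late minus early OA effect of Acot1, 0.05 without the 3 least correlated arrays, and late minus early serum Fabp4, 0.67 with the replicate block. The cause was not tested. Leaving out an array of a group outside a contrast cannot change its difference, so many of these refits could not change a sign. Comparisons within single slides are not in the count of 28. Among them Fabp4 at 1.5 h was at -1.85 on slide 3 and at 0.01 on slide 4. Pairs of members varying together numbered 4, with 2 on deviations from group means and 6 without the 3 least correlated arrays. Dim probes (Pdk4 throughout, Acot1 on 9 arrays) limit what can be read.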
